A study of Homo sapiens with 16 samples.

Results

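The HIST1 clusters are groups of replication-dependent histone genes on the short arm of human chromosome 6, taken here as 2 windows. Listed H3K27ac and H3K9ac ChIP-seq peaks were taken as members where they shared at least 1 bp with the 300 kb of chromosome 6 that begin at 26000001 (the first cluster) or chr6:27080001-27900000 (the second cluster, 820 kb) in hg19. This gave 492 of the 179689 peaks in the 8 lists, and merging peaks that overlapped between lists gave 83 regions, 12 in the first and 71 in the second cluster. The study asked how the acetylation landscape differs between cisplatin (cPt) sensitive and resistant ovarian cancer cells, and what suppression of *MBD3*, a subunit of the NuRD deacetylase complex, does to it. A2780 is a cPt-sensitive line from an endometrioid ovarian adenocarcinoma, and A2780cis is its resistant derivative. CAOV4 comes from a high-grade serous ovarian adenocarcinoma, and CAOV4cis is a population made from it by prolonged exposure to increasing cPt. Both resistant lines were kept in medium with cPt, while A2780 and CAOV4 received none. The lists named shMBD3.26 and shMBD3.232 are from A2780 cells after 1 week of *MBD3* knockdown with 1 of 2 doxycycline-inducible shRNAs. The untransduced A2780 list, which lacks the vector and doxycycline, is their only reference here, and the cells with a control shRNA were not analysed here.

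H3K27ac was profiled in 6 conditions and H3K9ac in A2780 and A2780cis, with 1 library per condition, so no difference has a replicate check and no test was run. The deposited lists give the start and end of each peak but no signal, so width and covered length stand in for the amount of a mark, at a depth that is unknown. The lists hold 15365 to 28662 peaks each, all boundaries of peaks in the clusters lie on a 200 bp grid, and the smallest gap between peaks of a list is 1000 bp in each. A peak that is missing from a list can still carry signal below the authors' threshold. The labelled cell type could not be checked against marker genes, because no hg19 gene annotation was used here.

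Replication-dependent histone genes encode the core histones H2A, H2B, H3 and H4, around which DNA is wrapped, and the linker histone H1. They are transcribed in bulk during S phase from short genes without introns, and their messages end in a stem-loop in place of a poly(A) tail. Nuclear bodies called histone locus bodies, which gather the factor NPAT, form at these clusters, and H3K27ac and H3K9ac are marks of active promoters and enhancers.

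In the RefSeq table used for names and order (GRCh38.p14), chromosome 6 holds 55 coding genes with an older symbol that starts with HIST1H, in 4 groups separated by at least 2 coding genes of other kinds. A pair of testis-specific genes, *H2AC1* and *H2BC1*, comes first. The largest group has 32 genes, from *H1-1* to *H4C8*, with 5 H1, 4 H2A, 8 H2B, 7 H3 and 8 H4 genes. It encloses 1 coding gene of another kind, *HFE*, a regulator of iron uptake. After 9 coding genes, among them the butyrophilin genes *BTN3A2* to *BTN1A1*, and 47 tRNA genes, a group of 5 follows, from *H2BC11* to *H2AC12*. A further 51 tRNA genes and 5 coding genes (*PRSS16*, *POM121L2*, *LOC105375107*, *ZNF391* and *ZNF184*) separate it from the last group of 16, from *H2BC13* to *H2BC17*. By family, the table has 6 H1, 12 H2A, 15 H2B, 10 H3 and 12 H4 genes, besides 11 histone pseudogenes. Strand was available for 50 of the 55 genes, and pairs with any of the others could not be counted. Of the neighbors with a strand, 15 pairs stand head to head with their starts facing each other. An H2A and an H2B gene make up 9 of these pairs. The lists are on hg19, so no peak was assigned to a gene, and the order of genes is given only as the background to the peak map. Genes of other kinds stand between the groups, so a window may hold them too. A peak in a window, here called a cluster, thus need not lie at a histone gene.

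The promoters show what these genes share beyond their names. The genes were chosen by symbol and not placed in hg19, so some of the 55 may lie outside the 2 windows. Of the 55 genes, 50 have an entry in the RefSeq promoter table. *H4C1*, *H4C3*, *H2AC12*, *H3C11* and *H3C12* have none. The 250 bases before the start were searched on both strands for 3 motifs. These were CCAAT, the box bound by NF-Y, TATAAA, a sequence of TATA boxes, and ATTTGCAT, the octamer read by POU factors such as OCT1. Matches of different motifs may share bases at their ends. CCAAT was present in 86.0% of the 50 promoters and in 33.04% of the 27305 promoters of the table. TATAAA was present in 66.0% of the 50 and in 11.13% of all, and on the sense strand its median position was 31 bases before the start. ATTTGCAT was present in 44.0% of the 50 and in 1.663% of all. The octamer was unevenly spread over the families, with 12 of 15 H2B, 9 of 11 H2A, 1 of 8 H3, 0 of 10 H4 and 0 of 6 H1 promoters. CCAAT was found in each H1, H2A, H2B and H3 promoter and in 3 of 10 H4 promoters.

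One promoter for each core family is printed to show the difference between families, each the 250 bases on chromosome 6 upstream of the start, 5′ to 3′ on the gene's own strand, from RefSeq (GRCh38.p14), with matches to the 3 motifs on either strand in capitals.
H2AC4: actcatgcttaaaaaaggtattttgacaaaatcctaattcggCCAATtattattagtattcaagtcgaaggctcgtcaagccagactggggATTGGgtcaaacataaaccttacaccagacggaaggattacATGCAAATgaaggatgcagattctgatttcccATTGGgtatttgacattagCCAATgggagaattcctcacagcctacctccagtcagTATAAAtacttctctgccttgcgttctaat
H2BC3: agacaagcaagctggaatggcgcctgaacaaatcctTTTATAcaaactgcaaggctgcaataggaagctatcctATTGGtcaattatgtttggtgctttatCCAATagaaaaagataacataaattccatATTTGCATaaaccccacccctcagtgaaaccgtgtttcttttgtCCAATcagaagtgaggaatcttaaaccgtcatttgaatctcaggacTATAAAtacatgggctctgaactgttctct
H3C1: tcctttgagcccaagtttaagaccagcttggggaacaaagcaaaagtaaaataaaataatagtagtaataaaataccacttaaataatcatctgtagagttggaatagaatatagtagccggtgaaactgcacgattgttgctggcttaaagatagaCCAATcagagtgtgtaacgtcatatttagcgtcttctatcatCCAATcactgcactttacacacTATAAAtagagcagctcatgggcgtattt
H4C2: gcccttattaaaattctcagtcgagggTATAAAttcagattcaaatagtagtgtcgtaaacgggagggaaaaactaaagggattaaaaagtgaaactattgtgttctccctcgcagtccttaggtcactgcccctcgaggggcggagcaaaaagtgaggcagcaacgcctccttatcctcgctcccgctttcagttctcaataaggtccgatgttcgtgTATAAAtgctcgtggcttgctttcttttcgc
*H2AC4*, on the minus strand, has an octamer on the opposite strand that starts 118 bases before the start, 4 CCAAT matches over both strands and a TATAAA at 30 bases. *H2BC3*, also on the minus strand, has an octamer on its own strand at 120 bases. *H3C1*, on the plus strand, has CCAAT at 93 and 51 bases and TATAAA at 29, and no octamer. *H4C2*, on the minus strand, has TATAAA at 223 and 31 bases and neither of the other motifs. A match is a string of letters and says nothing of binding.

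Acetylation covered a large part of the clusters in each list. H3K27ac peaks covered 37.96% of the 1120 kb in A2780, 37.14% in A2780cis, 35.62% with shMBD3.26, 30.05% with shMBD3.232, 21.29% in CAOV4 and 25.68% in CAOV4cis. H3K9ac peaks covered 27.27% in A2780 and 26.7% in A2780cis. The rest of chromosome 6 includes the stretch between the clusters and was counted up to position 149463200, past which no list had a peak. The A2780 H3K9ac list ended first on this chromosome, at 143833200. Whether the lists are complete past these positions was not checked, so shares outside the clusters refer to the peaks as listed. The rest of chromosome 6 was covered to between 1.307% (A2780 H3K9ac) and 2.568% (A2780cis H3K27ac). The clusters were thus covered 10.97 to 20.86 times as densely, lowest in CAOV4 and highest for H3K9ac in A2780. The 780 kb between the clusters were intermediate, at 4.615% in CAOV4 to 16.82% for H3K27ac in A2780. Of the covered length of a whole list, the clusters held from 0.3043% (CAOV4) to 0.553% (A2780 H3K9ac).

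The first cluster was the more densely covered in each of the 8 lists. Its covered share was 58.87% in A2780 and 54.73% in A2780cis for H3K27ac, and 52.8% and 46.0% for H3K9ac. It was 67.4% with shMBD3.26 and 44.8% with shMBD3.232, the highest and the lowest of the 8 values. In CAOV4 and CAOV4cis it was 50.67% and 60.33%, within the range of the A2780 lists. The second cluster was covered to 30.32% and 30.71% for H3K27ac in A2780 and A2780cis, and to 24.0% and 24.66% with the 2 shRNAs, shMBD3.26 and shMBD3.232. In CAOV4 and CAOV4cis it was covered to 10.54% and 13.0%, below each of the 6 lists from A2780 and its derivatives, since the lowest of those was 17.93% for H3K9ac in A2780. The ratio of the second to the first cluster was 0.208 and 0.2155 in CAOV4 and CAOV4cis, and 0.3396 to 0.5611 in the other 6 lists.

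**Figure D1:**
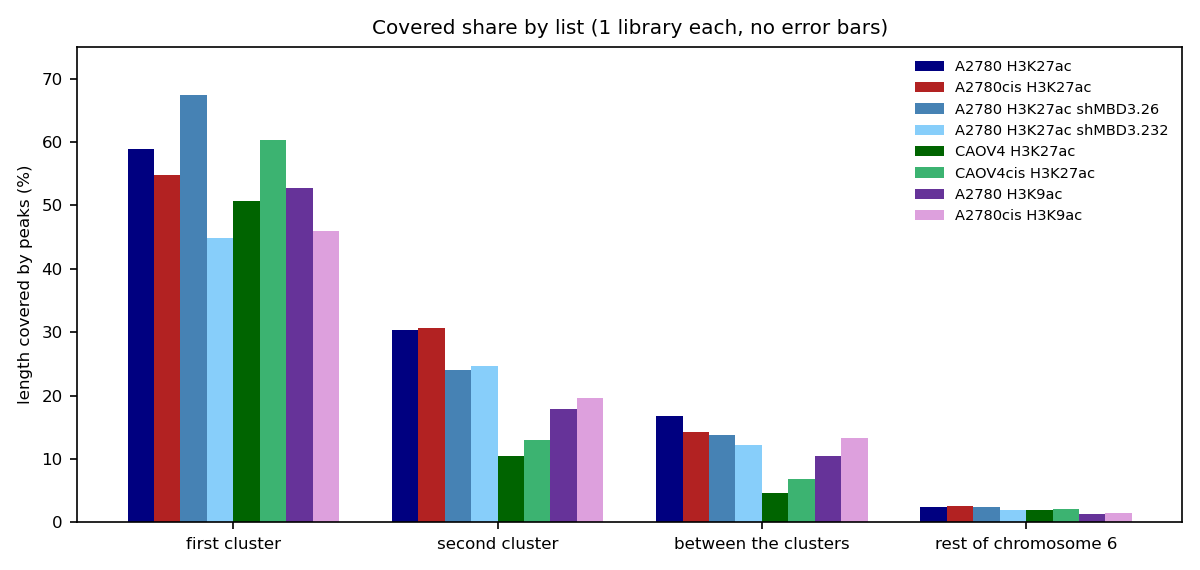
Share of length covered by listed peaks (%, y axis) in the first cluster, the second cluster, the stretch between them and chromosome 6 outside both clusters (which includes that stretch), with 1 bar per list and no error bars because each list is 1 library. The first cluster lies between 44.8% and 67.4% in all 8 lists, and the CAOV4 and CAOV4cis bars of the second cluster, at 10.54% and 13.0%, are the lowest there.

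The list with the most peaks also had the highest covered share, and the 3 lists with the fewest had the lowest. H3K27ac gave 83 peaks in the clusters in A2780, 61 in A2780cis, 65 with shMBD3.26, 66 with shMBD3.232, 38 in CAOV4 and 49 in CAOV4cis. H3K9ac gave 74 in A2780 and 56 in A2780cis. A2780cis thus had fewer peaks than A2780 for both marks, with 0.7349 times as many for H3K27ac and 0.7568 times as many for H3K9ac, at 0.9784 and 0.979 times the covered length. That small difference in length turned direction for both marks when only peaks over 2 kb were counted (35.02% in A2780 and 35.7% in A2780cis for H3K27ac, 23.71% and 24.75% for H3K9ac). The number of peaks over all chromosomes was lower by a like factor, 0.7292 for H3K27ac and 0.6744 for H3K9ac. CAOV4cis had 1.289 times as many peaks in the clusters as CAOV4, and the 11 additional peaks were in the first cluster, where CAOV4 had 16 and CAOV4cis 27. Both had 22 peaks in the second cluster.

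Peaks in the clusters were wider than those of the whole lists. As listed, they were wider in A2780cis than in A2780, an order that did not hold for H3K9ac once neighboring peaks were joined. For H3K27ac the median width in the clusters went from 2600 bp in the A2780 list to 4000 bp in that of A2780cis, and for H3K9ac from 2400 to 3700 bp. The H3K27ac lists were also cut to an equal number of their widest peaks. A2780 then had 61 peaks in the clusters with a median of 4200 bp, and A2780cis 58 with a median of 4300 bp. Such a cut drops the narrowest peaks, and more of them from the longer A2780 list. It raises the A2780 median by design, so no conclusion is drawn from the smaller difference. With the H3K9ac lists cut the same way, the medians were 2800 and 3700 bp. With peaks within 5 kb joined, the H3K9ac medians were 5000 bp in A2780 and 3000 bp in A2780cis, so the direction turned, while those of H3K27ac were 8300 and 9400 bp. As listed, the median was 2800 bp with shMBD3.26, 3400 bp with shMBD3.232, 3100 bp in CAOV4 and 3200 bp in CAOV4cis, and the last 2 were 9200 and 3400 bp with peaks joined. Over all chromosomes the same lists had medians of 1600 to 2800 bp, and the median of both clusters together was the larger in each list. In the second cluster alone it was the smaller with shMBD3.232 (2400 against 2600 bp) and in CAOV4 (2100 against 2200 bp). It was equal for H3K9ac in A2780cis (2600 bp) and larger in the other lists. Peaks over 10 kb were 9.091% (shMBD3.232) to 22.95% (A2780cis H3K27ac) of the peaks in the clusters, against 1.958% to 8.11% over all chromosomes. In the second cluster alone they were rarer than over all chromosomes with shMBD3.26 (4.167% against 4.537%) and shMBD3.232 (6.383% against 7.158%). They were more frequent there in the other lists. The highest share was in the first cluster of A2780cis, where 8 of 18 H3K27ac peaks exceeded 10 kb and the median was 8600 bp. Widths ranged from 200 bp, the step of the grid, to 44.8 kb.

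**Figure D2:**
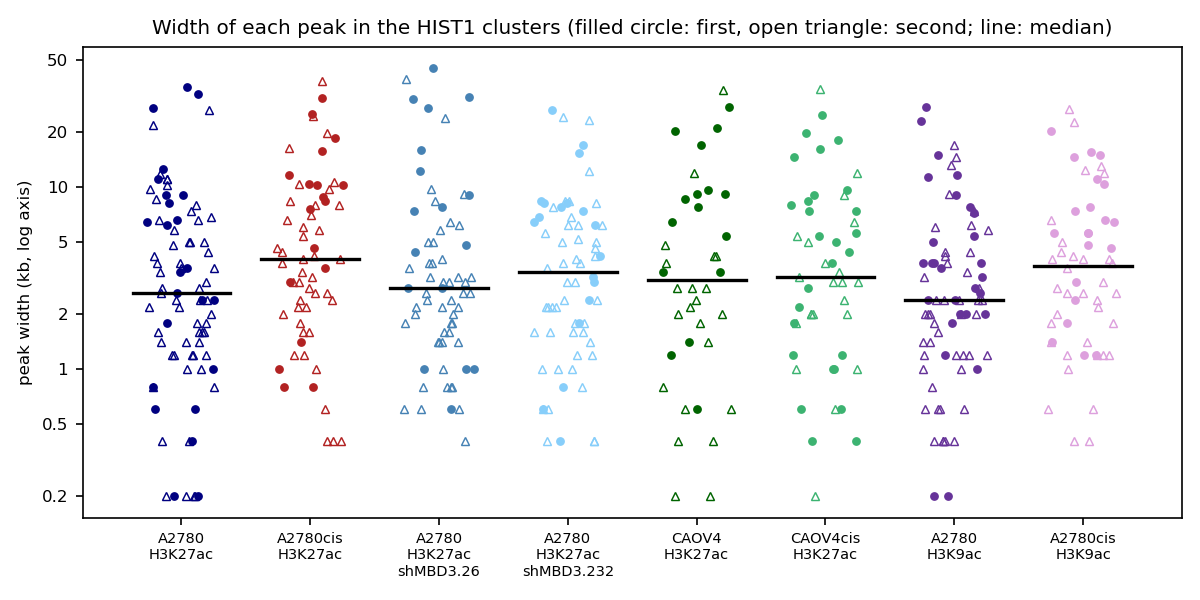
Width of each of the 492 peaks in the clusters (kb, log axis) by list, with filled circles for the first and open triangles for the second cluster and a line at the median of both. The medians lie between 2400 bp (A2780 H3K9ac) and 4000 bp (A2780cis H3K27ac), and single peaks reach 44.8 kb.

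The widest peaks of the clusters recurred at a few places. In the first cluster, the widest H3K27ac peak was chr6:26177401-26212600 in A2780 (35.2 kb), chr6:26181001-26212000 in A2780cis (31.0 kb) and chr6:26181801-26208200 with shMBD3.232 (26.4 kb). The widest H3K9ac peaks lay at the same place, chr6:26180801-26208200 in A2780 (27.4 kb) and chr6:26192001-26212400 in A2780cis (20.4 kb). With shMBD3.26 and in CAOV4 the widest peak lay further along, at chr6:26211601-26256400 (44.8 kb) and chr6:26211001-26238600 (27.6 kb). CAOV4cis was the exception, with its widest peak at chr6:26085801-26110800 (25.0 kb). In the second cluster, the widest peak lay near the far end in 5 lists, as chr6:27771601-27809600 in A2780cis (38.0 kb), chr6:27770801-27810200 with shMBD3.26 (39.4 kb), chr6:27774601-27808600 in CAOV4 (34.0 kb), chr6:27773401-27807800 in CAOV4cis (34.4 kb) and chr6:27777801-27794800 for H3K9ac in A2780 (17.0 kb). It lay near the start in the other 3, as chr6:27092801-27119200 in A2780 (26.4 kb), chr6:27094001-27118200 with shMBD3.232 (24.2 kb) and chr6:27092001-27118800 for H3K9ac in A2780cis (26.8 kb). Within a whole list the 44.8 kb peak ranked 40 of 23960 by width, and the CAOV4 peak of 34.0 kb ranked 49 of 23485.

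**Figure D3:**
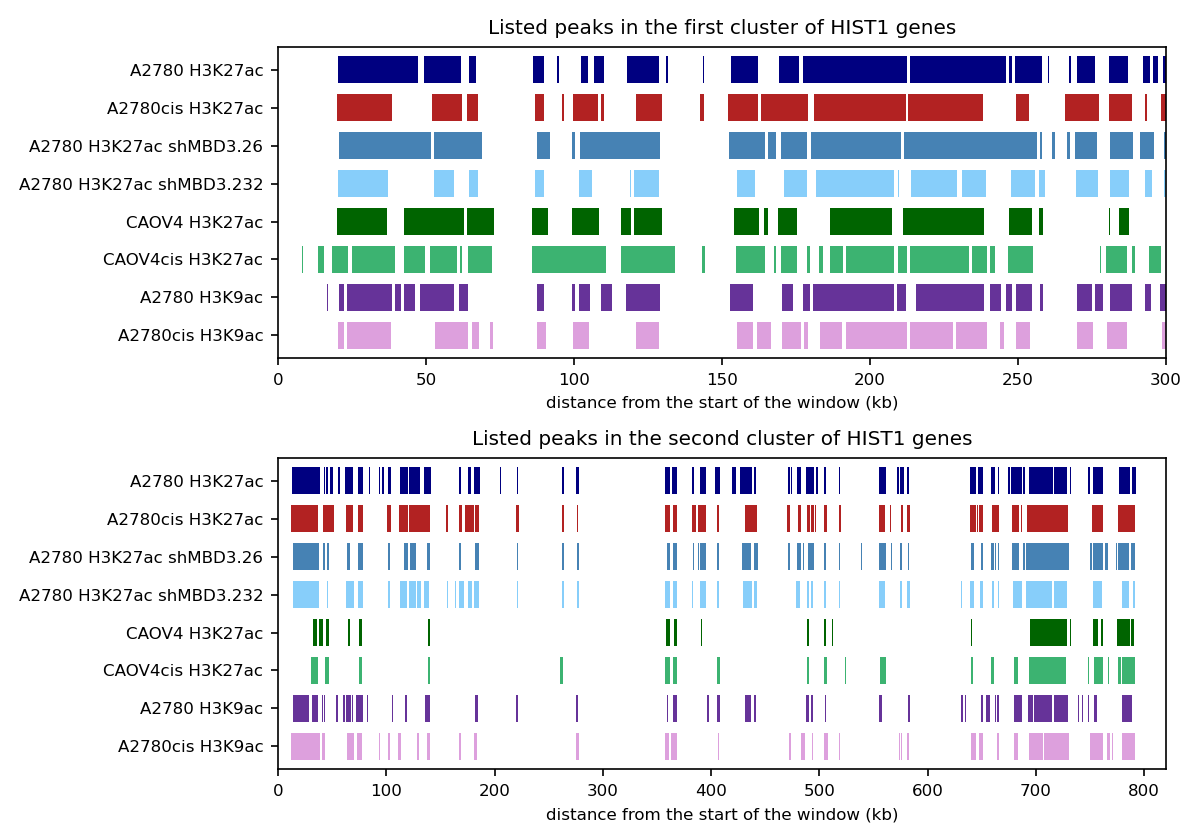
Listed peaks (bars) of the 8 lists along the first cluster (upper panel) and the second cluster (lower panel), by distance from the start of each window in kb. In the first cluster all lists have wide peaks over the same blocks, and in the second cluster all lists have peaks towards the far end while CAOV4 and CAOV4cis are sparse before that.

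In the A2780 lists the second cluster was covered most towards its 2 ends, and in CAOV4 and CAOV4cis at the far end. Over 100 kb stretches, H3K27ac in A2780 covered 51.0% of chr6:27080001-27180000, 36.4% of the next stretch, 8.2% of the third, 16.2%, 34.6% and 15.8% of the middle ones, and 34.4% and 52.0% of the last full ones. A2780cis followed the same course, with 45.0% at the start, 48.4% in the next stretch, 5.8% in the third and 56.4% in the last full one. The final 20 kb had no peak in any list. In CAOV4 the first 3 stretches were covered to 15.2%, 1.4% and 0.0% and the last full one to 51.4%. CAOV4cis had 11.8%, 2.0% and 3.2% in the first 3 and 53.4% in the last, so the far end was covered in CAOV4 and CAOV4cis as in the A2780 lists (42.6% to 59.8%), whereas the near end was not. In the first cluster no such gradient was shared, since covered shares of the 3 stretches were 46.6%, 56.2% and 73.8% in A2780 and 52.6%, 51.0% and 48.4% in CAOV4.

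**Figure D4:**
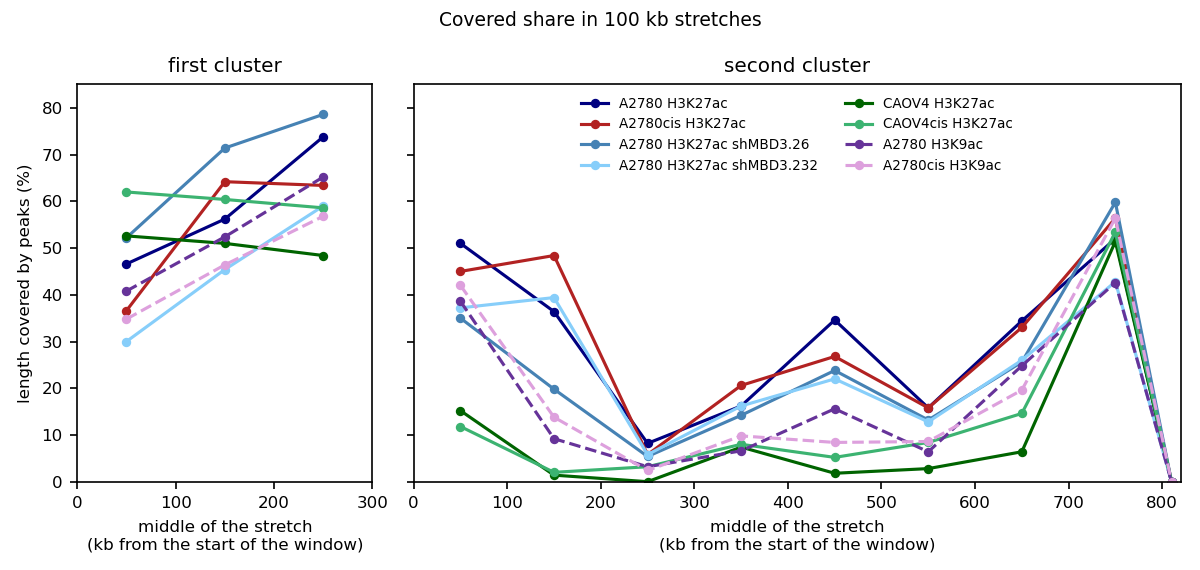
Share of length covered by peaks (%, y axis) in successive 100 kb stretches of the first and second cluster, plotted at the middle of each stretch (kb from the start of the window), with solid lines for H3K27ac and dashed lines for H3K9ac; the last point of the second cluster is a 20 kb stretch with no peak. CAOV4 and CAOV4cis lie at 15.2% and 11.8% in the first stretch of the second cluster, below the A2780 lists, and at 51.4% and 53.4% in the last full stretch, among them.

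A small number of wide regions with a peak in all 8 lists made up most of the covered length. Of the 83 regions, 15 (18.07%) had a peak in all 8 lists, against 8.75% of the 59817 regions over all chromosomes, 5 in the first cluster (244.2 kb in sum) and 10 in the second (159.4 kb). Another 30 regions (36.14%, against 56.6% over all chromosomes) had a peak in 1 list only, with a summed width of 29.8 kb, and 25 of these were under 2 kb. The remaining regions had a peak in some but not all lists, 8 in 2 lists, 3 in 3, 5 in 4, 9 in 5, 6 in 6 and 7 in 7. The regions common to all lists held 69.71% of the covered length of the clusters in A2780 H3K27ac, 70.14% in A2780cis, 78.1% with shMBD3.26 and 70.65% with shMBD3.232. For H3K9ac they held 78.72% in A2780 and 82.27% in A2780cis, and in CAOV4 and CAOV4cis 97.9% and 90.82%. These shares count all covered length inside such a region, also where other lists had no peak at the same bases. Width is not independent of this, since a region takes the full extent of its merged peaks. A wide region thus more easily holds a peak of each list. The list with the most regions of its own was A2780 H3K9ac with 9, followed by A2780 H3K27ac with 8, and the others had 1 to 3. Counts by list were not made over all chromosomes, and the lists differ in length and mark.

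Base by base, 136.2 kb of the clusters were covered in all 8 lists, which is 23.01% of the 591.8 kb covered in any list. Over all chromosomes the same share was 5.267%. For the 6 H3K27ac lists alone it was 27.72% in the clusters and 8.404% over all chromosomes. The longest stretches covered in all 8 lists were chr6:26192001-26207600 (15.6 kb), chr6:26215601-26228200 (12.6 kb) and chr6:26025001-26036800 (11.8 kb) in the first cluster and chr6:27796601-27807800 (11.2 kb) and chr6:27777801-27786200 (8.4 kb) in the second. No list had a peak in 17.53% of the first and 58.0% of the second cluster, and the longest such stretch was chr6:27358401-27437200 (78.8 kb).

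The regions found in all lists differed in how constant they were. The most even was chr6:27770801-27810200 at the far end of the second cluster, where the covered length was 33.6 kb in A2780, 38.0 kb in A2780cis, 39.4 kb with shMBD3.26, 35.4 kb with shMBD3.232, 34.2 kb in CAOV4 and 34.4 kb in CAOV4cis, and for H3K9ac 34.6 kb in A2780 and 35.8 kb in A2780cis. Its highest value was 1.173 times its lowest. The largest region, chr6:26152001-26259000 in the first cluster, was covered over 93.2 kb in A2780, 86.8 kb in A2780cis, 99.8 kb with shMBD3.26, 74.4 kb with shMBD3.232, 74.0 kb in CAOV4 and 76.2 kb in CAOV4cis, and by H3K9ac over 79.4 kb in A2780 and 76.8 kb in A2780cis. The region chr6:26018201-26073000 was covered over between 27 kb (shMBD3.232) and 47.2 kb (shMBD3.26). At chr6:27443001-27448600 the covered length was 2.8 kb in CAOV4 to 5.0 kb for H3K9ac in A2780cis. In these 4 regions the highest value was less than 2 times the lowest, and in the other 11 it was more, a split not counted over all chromosomes.

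The regions that varied most between lists were low in CAOV4. At chr6:27201001-27221200 H3K27ac covered 16.8 kb in A2780, 19.8 kb in A2780cis, 7.6 kb with shMBD3.26 and 14.6 kb with shMBD3.232, against 1.4 kb in CAOV4 and 2.0 kb in CAOV4cis. At chr6:26291201-26315400, which runs past the edge of the first window and is counted whole, it covered 18.4 kb in A2780, 16.8 kb in A2780cis, 17.0 kb with shMBD3.26, 12.2 kb with shMBD3.232, 2.0 kb in CAOV4 and 7.8 kb in CAOV4cis. CAOV4 or CAOV4cis held the lowest value in 7 of the 15 regions. The same count was not made over all chromosomes, so it is not read as particular to the clusters. The remaining regions with a peak in all lists varied from 2.05 to 4.714 times between lists. They were chr6:26085801-26134000 (16.2 to 43.2 kb covered), chr6:26279601-26289600 (4.0 to 8.6 kb), chr6:27092001-27131600 (9.8 to 34.4 kb), chr6:27152001-27158400 (2.0 to 6.2 kb), chr6:27437201-27442400 (1.2 to 5.2 kb), chr6:27567801-27575000 (1.4 to 6.6 kb), chr6:27584001-27588000 (1.0 to 3.8 kb), chr6:27829601-27842200 (2.8 to 12.0 kb) and chr6:27853401-27872600 (8.0 to 16.4 kb).

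Between A2780 and A2780cis, regions with H3K27ac in the clusters were found in both lists more often than regions over all chromosomes. Of 77 regions formed by these 2 lists, 53 had a peak in both (68.83%, 95% Wilson interval 57.8% to 78.07%), against 43.97% of the regions over all chromosomes. A2780 alone had 20 (25.97%), against 38.1% over all chromosomes, and A2780cis alone had 4 (5.195%), against 17.9%. Between the clusters, 24 of 47 regions had a peak in both (51.06%), with an interval of 37.24% to 64.72% that overlaps that of the clusters. A2780 alone had 40.43% there and A2780cis alone 8.511%. In the clusters, the regions found in both lists had a median width of 5400 bp. Those found in A2780 alone had 1100 bp and those in A2780cis alone 900 bp, and 2 of the 24 regions found in 1 list were over 2 kb. In covered length, 69.26% of the union was shared in the clusters and 44.41% over all chromosomes. The Wilson intervals cover counting error only, as do those that follow. Width is not independent of this result, since a region found in both lists takes the full extent of its merged peaks. A limit on width thus favors regions found in both lists, here and in the comparisons that follow. Among regions wider than 5 kb (a limit set with the data in view), 27 of 27 in the clusters had a peak in both lists (100%, Wilson interval 87.54% to 100%), against 82.13% over all chromosomes.

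The largest differences in covered length of H3K27ac between A2780 and A2780cis were in wide regions present in both. At chr6:26018201-26073000 the length was 42.2 kb in A2780 and 32.4 kb in A2780cis, and at chr6:26152001-26259000 it was 93.2 and 86.8 kb. A2780cis had the greater length at chr6:26265801-26278600 (11.6 against 6.8 kb), chr6:27770801-27810200 (38.0 against 33.6 kb) and chr6:27253001-27266400 (12.0 against 7.8 kb). The first cluster held 12.4 kb less in A2780cis and the second 3.2 kb more. Over the 83 regions, 26 (31.33%) had more covered length in A2780cis and 32 (38.55%) in A2780, against 21.3% and 26.5% over all chromosomes.

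H3K9ac was less alike between A2780 and A2780cis than H3K27ac was. Of 83 regions formed by the H3K9ac lists, which are not the 83 regions of all lists, 36 had a peak in both (43.37%, Wilson interval 33.24% to 54.09%), against 32.36% over all chromosomes. A2780 alone had 30 (36.14%), against 46.0% over all chromosomes, and A2780cis alone had 17 (20.48%), against 21.7%. The intervals for A2780 alone, 26.63% to 46.88%, and for A2780cis alone, 13.2% to 30.38%, include the shares over all chromosomes. Between the clusters 42.11% of regions had a peak in both, close to the 43.37% of the clusters. Of regions over 5 kb, 20 of 21 had a peak in both (95.24%), and the interval of 77.33% to 99.15% includes the 79.75% over all chromosomes. The shared length was 54.58% of the union in the clusters and 34.69% over all chromosomes. The largest differences were at chr6:27829601-27842200, with 2.8 kb in A2780 and 12.0 kb in A2780cis, and at chr6:27506401-27522800, with 8.0 kb in A2780 and no peak in A2780cis. At chr6:27506401-27522800 H3K27ac covered 13.4 kb in A2780 and 10.6 kb in A2780cis, so only the H3K9ac list of A2780cis lacked a peak among these 4. H3K9ac covered 22.2 and 29.8 kb at chr6:27092001-27131600, 37.4 and 31.4 kb at chr6:26018201-26073000 and 22.4 and 16.4 kb at chr6:26085801-26134000, in A2780 and A2780cis in that order.

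CAOV4cis had more H3K27ac peaks and more covered length in the clusters than CAOV4. Of 50 regions, 24 had a peak in both (48.0%), and the Wilson interval of 34.8% to 61.49% includes the 37.12% over all chromosomes. Between the clusters the share was higher, with 15 of 23 (65.22%, Wilson interval 44.89% to 81.19%). In the clusters CAOV4 alone had 8 (16.0%), against 29.1% over all chromosomes. CAOV4cis alone had 18 (36.0%), against 33.8%, which lies inside the interval of 24.14% to 49.86%. Between the clusters CAOV4 alone had 4.348% and CAOV4cis alone 30.43%. Each of the 17 regions of the clusters over 5 kb had a peak in both lists (100%, Wilson interval 81.57% to 100%), against 93.63% over all chromosomes. The covered length was 1.206 times as large in CAOV4cis in the clusters, 1.084 times on the rest of chromosome 6 and 1.058 times over all chromosomes. The largest difference was at chr6:26085801-26134000 in the first cluster, with 27.6 kb in CAOV4 and 43.2 kb in CAOV4cis. The others were chr6:26291201-26315400 (2.0 and 7.8 kb), chr6:27634601-27641600 (0.6 and 5.4 kb), chr6:26279601-26289600 (4.0 and 8.6 kb) and chr6:27757001-27767000 (no peak and 3.8 kb). In all 5 the CAOV4cis list held the greater length, and over the 83 regions CAOV4cis held more in 25 (30.12%) and CAOV4 in 8 (9.639%), against 27% and 22.6% over all chromosomes. The interval of the first share, 21.31% to 40.69%, includes that over all chromosomes, and that of the second, 4.965% to 17.88%, does not.

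The lists of A2780 cells with an *MBD3* shRNA both held fewer peaks in the clusters than untransduced A2780, but they differed in the first cluster. In the clusters the number of peaks was 0.7831 times that of A2780 with shMBD3.26 and 0.7952 times with shMBD3.232. Over all chromosomes it was 0.836 and 0.6795 times, so a lower count was not particular to the clusters. With shMBD3.26, 49 of 84 regions had a peak in both lists (58.33%, against 47.98% over all chromosomes), A2780 alone had 24 (28.57%, against 34.0%) and shMBD3.26 alone had 11 (13.1%, against 18.0%). The Wilson intervals of all 3 shares, 47.65% to 68.29%, 20.02% to 39.0% and 7.472% to 21.95%, include those over all chromosomes. Between the clusters 65.31% had a peak in both. With shMBD3.232, 55 of 84 had a peak in both (65.48%, against 49.01%), A2780 alone had 26 (30.95%, against 40.1%) and shMBD3.232 alone had 3 (3.571%, against 10.9%). The interval of A2780 alone, 22.08% to 41.49%, includes the share over all chromosomes, and those of regions found in both lists, 54.83% to 74.76%, and of shMBD3.232 alone, 1.222% to 9.982%, do not. Between the clusters 59.09% had a peak in both, inside the interval of the clusters. There A2780 alone had 40.91% and shMBD3.232 alone 0 of 44 regions (0.0%). A low share of shMBD3.232 alone was thus not particular to the clusters. Of regions over 5 kb, 22 of 22 were found in both lists for shMBD3.26 (100%, against 96.22% over all chromosomes) and 26 of 26 for shMBD3.232 (100%, against 94.37%). Both comparisons use the same A2780 list, so they are not independent of each other.

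In the first cluster, shMBD3.26 covered 202.2 kb and shMBD3.232 134.4 kb, on either side of the 176.6 kb of A2780. In the second cluster both were lower than A2780, at 196.8 and 202.2 kb against 248.6 kb. Over all chromosomes shMBD3.26 covered 0.795 times and shMBD3.232 0.8173 times the length of A2780. On chromosome 6 outside the clusters the values were 1.003 and 0.8267 times, so shMBD3.26 stood higher on the rest of this chromosome than over its whole list. In the first cluster it covered 1.145 times and in the second 0.7916 times the length of A2780, one above and one below the rest of chromosome 6. For shMBD3.232 the values were 0.761 and 0.8134 times. At chr6:26085801-26134000 H3K27ac covered 22.2 kb in A2780, 32.4 kb with shMBD3.26 and 16.2 kb with shMBD3.232, and at chr6:26018201-26073000 it covered 42.2, 47.2 and 27 kb. At chr6:26152001-26259000 the lengths were 93.2, 99.8 and 74.4 kb, in the same order. At these 3 regions of the first cluster, shMBD3.26 lay above A2780 and shMBD3.232 below it. In the second cluster, chr6:27201001-27221200 was covered over 16.8, 7.6 and 14.6 kb, chr6:27141601-27150400 over 8.0, 2.6 and 7.8 kb, and chr6:27092001-27131600 over 32.0, 28.4 and 25.2 kb. At chr6:27770801-27810200 the lengths were 33.6, 39.4 and 35.4 kb, and at chr6:27853401-27872600 they were 14.6, 15.2 and 8.0 kb. At chr6:26291201-26315400, at the end of the first cluster, they were 18.4, 17.0 and 12.2 kb, so here both shRNA lists lay below A2780. The regions of the second cluster had no single order of the 3 lists.

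**Figure D5:**
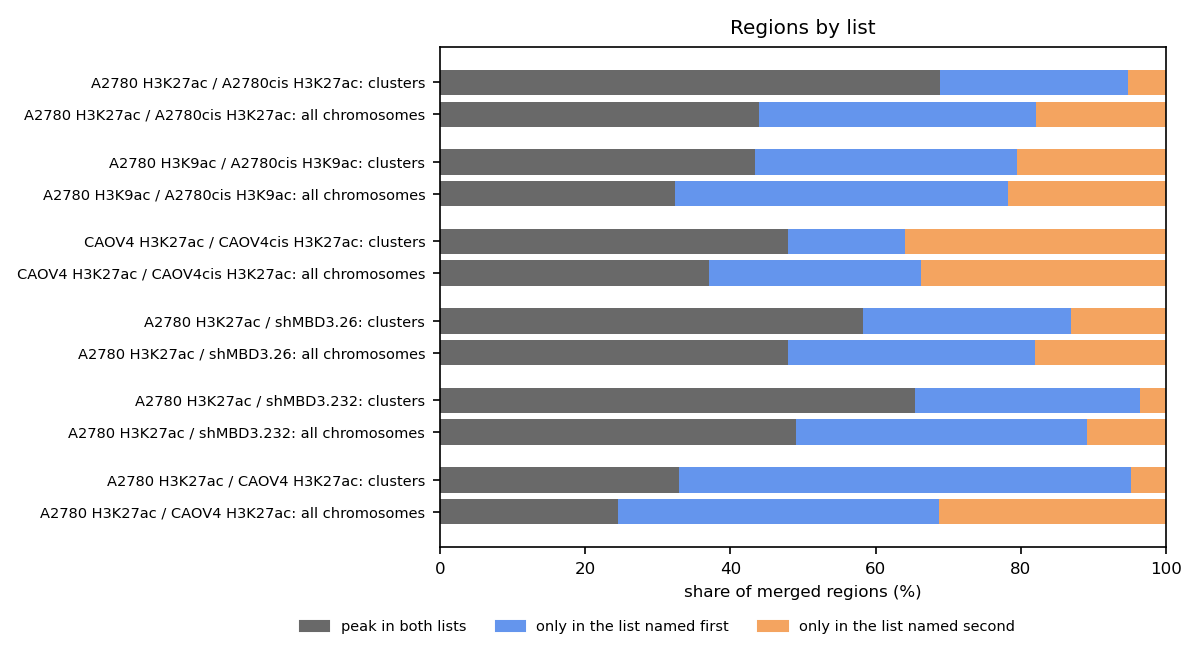
Share of merged regions (%, x axis) with a peak in both lists (grey), only in the list named first (blue) or only in the list named second (orange), for each of 6 pairs of lists, in the clusters and over all chromosomes. The grey part is larger in the clusters in each of the 6 pairs, from 32.93% against 24.47% for A2780 and CAOV4 to 68.83% against 43.97% for A2780 and A2780cis H3K27ac. Between the clusters, which is not drawn, it was larger than in the clusters for 3 of the pairs (CAOV4 and CAOV4cis, A2780 and shMBD3.26, A2780 and CAOV4).

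A2780 and CAOV4 differed mainly in the second cluster. Of 82 regions, 27 had H3K27ac peaks in both lines (32.93%, Wilson interval 23.72% to 43.66%), A2780 alone had 51 (62.2%, against 44.3% over all chromosomes) and CAOV4 alone had 4 (4.878%, against 31.2%). The interval of the first share includes the 24.47% of all chromosomes and the 33.33% between the clusters. Those of the other shares, 51.38% to 71.92% and 1.913% to 11.88%, do not include the shares over all chromosomes. They do include the shares between the clusters, 64.44% for A2780 alone and 2.222% for CAOV4 alone, so neither was particular to the clusters. Of regions over 5 kb, 19 of 25 were found in both lines (76.0%, Wilson interval 56.57% to 88.5%), against 60.68% over all chromosomes. CAOV4 covered 0.8607 times the length of A2780 in the first cluster and 0.3475 times in the second. The values were 0.2744 times between the clusters, 0.8026 times on the rest of chromosome 6 and 0.7923 times over all chromosomes. Where CAOV4 had a peak, A2780 mostly did too, since 88.43% of the length covered in CAOV4 in the second cluster was covered in A2780, whereas 30.73% of the length of A2780 was covered in CAOV4. Over all chromosomes these shares were 40.94% and 32.43%.

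The largest differences between A2780 and CAOV4 were chr6:27092001-27131600, with 32.0 and 10.8 kb, chr6:26152001-26259000, with 93.2 and 74.0 kb, chr6:26291201-26315400, with 18.4 and 2.0 kb, chr6:27201001-27221200, with 16.8 and 1.4 kb, and chr6:27506401-27522800, with 13.4 kb and no peak. Of the 83 regions, 13 had an H3K27ac peak in A2780, A2780cis and both shRNA lists and none in CAOV4 or CAOV4cis (15.66%, Wilson interval 9.388% to 24.98%), against 3.79% over all chromosomes. All 13 lay in the second cluster, with a summed width of 77.6 kb, and 5 of them (32.8 kb) had an H3K9ac peak in A2780 and A2780cis as well (6.024%, against 1.61%). No region had a peak in both CAOV4 and CAOV4cis and in no A2780 list, against 5.66% over all chromosomes, and 5 regions of 4.4 kb in sum had one in CAOV4 or CAOV4cis and in no A2780 list (6.024%, against 28.4%). These patterns were not counted between the clusters. In the comparison of A2780 and CAOV4, A2780 alone had 64.44% of regions there and CAOV4 alone 2.222%, so the patterns are not read as particular to the clusters.

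H3K9ac lay mostly inside H3K27ac, and the first cluster carried both marks over most of its acetylated length. In A2780, 86.71% of the length covered by H3K9ac in the clusters was also covered by H3K27ac, against 78.75% over all chromosomes. In A2780cis the shares were 89.03% and 87.12%. In the other direction, H3K9ac covered 62.28% of the H3K27ac length in A2780 and 63.99% in A2780cis, against 43.97% and 50.56% over all chromosomes. This share was 80.18% and 78.56% in the first cluster and 49.56% and 54.49% in the second, in A2780 and A2780cis. The covered length of H3K9ac was 0.7183 and 0.7188 times that of H3K27ac in the clusters, and 0.5584 and 0.5803 times over all chromosomes.

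Some regions of the second cluster were wide in H3K27ac and narrow in H3K9ac in both lines. At chr6:27201001-27221200 H3K27ac covered 16.8 kb in A2780 and 19.8 kb in A2780cis, and H3K9ac 4.2 and 4.8 kb. At chr6:27253001-27266400 H3K27ac covered 7.8 and 12.0 kb and H3K9ac 2.4 and 2.6 kb. At the far end the marks matched more closely, with 33.6 and 38.0 kb of H3K27ac and 34.6 and 35.8 kb of H3K9ac at chr6:27770801-27810200. Of the 83 regions, 26 had H3K27ac and no H3K9ac peak in any list and 11 the reverse, with summed widths of 29.4 and 11.0 kb. These were 31.33% and 13.25% of the regions, against 62.6% and 11.6% over all chromosomes, and the interval of the second share, 7.564% to 22.19%, includes the latter. The marks were profiled with different antibodies and in a different number of conditions, so the count of 26 is over 6 H3K27ac lists and 2 H3K9ac lists.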

How the data were processed

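Mononucleosomes were prepared with micrococcal nuclease, supplemented with 5% *D. melanogaster* mononucleosomes as a spike-in, and precipitated with antibodies against H3K27ac (Abcam ab4729) or H3K9ac (Abcam ab12179). Reads were aligned on Galaxy with Bowtie2 by the authors, who then applied quantile normalisation in R and ran MACS2 on each sample, and the submitters' processing notes name hg19 (GRCh37). How the spike-in was used and which step gives the 200 bp grid are not given in the sources used here, and widths depend on both the normalisation and the peak caller's threshold. The deposited lists hold positions of peaks, and their score, as deposited by the authors, is 0 throughout and was left aside.

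Peaks were counted where they shared at least 1 bp with a window, covered lengths were clipped to the windows, and widths were counted whole. Regions are unions of peaks from different lists that overlap by 1 bp or more. Shares carry 95% Wilson intervals, which cover counting error only. No test was run, as each condition has 1 library. The members and the lists of regions were chosen with earlier results of these data known. Named were the regions with a peak in all 8 lists, the 5 regions with the largest difference for each of 6 pairs, and the widest peak of each list in each cluster, with regions set beside them from both lines or marks. Gene names, gene order and promoters come from RefSeq (GRCh38.p14), whose coordinates were not used. The 6 peaks off the standard chromosomes, the input libraries and the control shRNA were left out. The alternatives were only peaks over 2 kb, equal numbers of the widest peaks for each list of a mark (19475 for H3K27ac and 15365 for H3K9ac), peaks wholly inside a window, window edges 50 kb further out, peaks within 5 kb joined, and an overlap of 50% of the shorter peak. Regions over 5 kb, by the width after merging, were added after seeing the data. Python 3.11.15, pandas 2.3.3, scipy 1.17.1 and matplotlib 3.10.9 were used, and merging and classing were tested on simulated data.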

Additional observations from a re-analysis of the deposited data

Results flagged for a closer look

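The resistant line differed from its parent in opposite directions in the A2780 and CAOV4 pairs for H3K27ac, and the difference between the pairs was not tested, since each list is 1 library. The number of peaks in both clusters was 22 lower in A2780cis than in A2780 (change -22.0) and 11 higher in CAOV4cis than in CAOV4, a difference of -33.0 peaks. In the first cluster alone the changes were -6.0 and 11.0 peaks, a difference of -17.0. The covered share of both clusters changed by -0.82 and 4.39 percentage points, a difference of -5.21, although the A2780 pair turned direction with only peaks over 2 kb (35.02% in A2780, 35.7% in A2780cis), and that of the first cluster by -4.14 and 9.66 percentage points, a difference of -13.8. The median peak width in the first cluster changed by 5100 and -3200 bp, a difference of 8300 bp. Over all chromosomes the number of peaks was also lower in A2780cis (0.7292 times) and higher in CAOV4cis (1.067 times).

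The 2 *MBD3* shRNAs lay on opposite sides of A2780 in the covered share of the first cluster, by 8.53 percentage points for shMBD3.26 and -14.07 for shMBD3.232, a difference of 22.6. Both are set against the same A2780 list, and the difference was not tested.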

How the results depend on the processing

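No paired analysis was possible because each condition has 1 library, and no replicate could be left out for the same reason. Of 92 alternative values, 49 stayed within 1.5 times of a count or within the counting interval of a share or median, and 43 did not. For covered shares and for H3K9ac inside H3K27ac, that interval counts each 200 bp step as independent. Steps of 1 peak are not independent, so these intervals are too narrow and small shifts fall outside them. With only peaks over 2 kb, the number of peaks was 50 in A2780 H3K27ac, 40 in A2780 H3K9ac, 41 with shMBD3.26, 24 in CAOV4 and 31 in CAOV4cis, and the share of H3K9ac inside H3K27ac in A2780 was 90.51%. The covered share was then 35.02% (A2780), 35.7% (A2780cis), 33.11% (shMBD3.26), 27.96% (shMBD3.232), 20.07% (CAOV4) and 23.82% (CAOV4cis) for H3K27ac and 23.71% and 24.75% for H3K9ac in A2780 and A2780cis, so the order of A2780 and A2780cis turned for both marks. With window edges 50 kb further out it was 34.89%, 34.15%, 32.71%, 27.68%, 18.39% and 22.73% for H3K27ac in the same order, and 24.88% and 25.33% for H3K9ac, where the order turned again. With peaks within 5 kb joined, the median width was 8300 bp (A2780), 9400 bp (A2780cis), 3900 bp (shMBD3.26), 6200 bp (shMBD3.232), 9200 bp (CAOV4) and 3400 bp (CAOV4cis) for H3K27ac. The H3K9ac medians were then 5000 bp (A2780) and 3000 bp (A2780cis), so the order turned for H3K9ac and for the CAOV4 pair. Counting peaks within 5 kb as shared gave 80.56% of regions in both lists for A2780 and A2780cis H3K27ac, 57.14% for H3K9ac, 72.97% for shMBD3.26 and 78.57% for shMBD3.232. With the same number of widest peaks per list, A2780 H3K27ac had a covered share of 36.62% and a median width of 4200 bp, against 4300 bp in A2780cis and 61 against 58 peaks, and the covered share was then the higher in A2780cis, at 37.04%. The median width of the CAOV4 pair also turned, with 4200 bp in CAOV4 and 3800 bp in CAOV4cis. The share of regions in both lists was then 80.0% for A2780 and A2780cis, 68.75% for shMBD3.26 and 81.54% for shMBD3.232. An overlap of 50% and peaks wholly inside a window moved no value past these limits. Among regions over 5 kb, a limit added after seeing the data, the share in both lists was 100% for A2780 and A2780cis H3K27ac, the CAOV4 pair and each shRNA, 95.24% for H3K9ac and 76.0% for A2780 and CAOV4. The lists hold no read depth, so its part in any difference was not tested.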
